A study of Mus musculus with 20 samples.

Results

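The 9 libraries described here are the usable formalin libraries of a mouse study of the gene Prdm12, out of 20 libraries in all. They were made from polyA RNA of lumbar (L3, L4 and L5) dorsal root ganglia, which lie along the spine and hold the cell bodies of sensory neurons, of adult C57Bl6 mice. A library was included when the name under which its counts were deposited held the word Formalin and its counts summed to over 1000000. Its genotype was the word in that name, which gave 4 libraries deposited as icKO, the inducible conditional knockout (knockout A to D), and 5 deposited as controls (control A to E). All 9 animals carried floxed Prdm12 alleles (P12 Fl/Fl in the labels) and received tamoxifen, 1 month before the ganglia were taken according to the series text. Knockout animals by definition also carry a tamoxifen-inducible Cre recombinase, which the sample characteristics name as AdvCreERT2 and the series text as Rosa26CreERT2. Both names are given as they stand, and the floxed stretch of Prdm12 is not stated in the labels. The agent was formalin, a chemical irritant used to provoke pain and inflammation; the labels state neither its dose nor its site nor the time before dissection.

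A second record of genotype exists, in the sample titles and characteristics, and it differs from the deposited names for 4 of the 9 libraries. Knockout A and B are titled as controls, and control B and C are titled as icKO. The records agree for the other 5 libraries, control A, D and E and knockout C and D. The sexes were unequal, with 1 female and 3 males among the knockout libraries and 3 females and 2 males among the controls, and sex was a term in every fit unless stated otherwise. Another animal deposited as icKO, knockout E, has a formalin library of 2829 counts over 1905 genes that was not used, while its noninjected library was.

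Prdm12 encodes a zinc finger transcriptional regulator of the PRDM family. In the embryo it is needed for the nociceptor lineage, the neurons that sense painful stimuli, and people with inherited loss of its function do not feel pain. In the adult ganglion its transcript remains in nociceptors, which divide into peptidergic cells (Calca, Tac1, Gfra3) and non-peptidergic cells (Ret, Mrgprd and other Mas-related receptors), and is low in the large mechanoreceptors and proprioceptors.

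The stretches before the start sites of Prdm12 and of the 2 top genes by p that rose and the 2 that fell are shown so that the target and genes of both directions can be compared. Each line gives the 250 bases before the annotated start, read in the direction of transcription, from RefSeq's GRCm38.p6 annotation. Capitals mark CANNTG, the E-box core bound by basic helix-loop-helix factors, which reads as CANNTG on either strand.
Prdm12: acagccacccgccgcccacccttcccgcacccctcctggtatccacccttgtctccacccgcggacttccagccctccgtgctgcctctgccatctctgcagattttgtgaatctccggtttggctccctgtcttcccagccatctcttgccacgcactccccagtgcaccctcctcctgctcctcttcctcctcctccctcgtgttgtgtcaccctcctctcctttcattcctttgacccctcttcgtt
Creg2: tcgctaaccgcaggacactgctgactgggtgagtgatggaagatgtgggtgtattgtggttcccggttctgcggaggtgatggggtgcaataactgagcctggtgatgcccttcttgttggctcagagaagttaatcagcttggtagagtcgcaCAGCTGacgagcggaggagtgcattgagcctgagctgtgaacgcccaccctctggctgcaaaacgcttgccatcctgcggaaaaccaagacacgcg
Gng2: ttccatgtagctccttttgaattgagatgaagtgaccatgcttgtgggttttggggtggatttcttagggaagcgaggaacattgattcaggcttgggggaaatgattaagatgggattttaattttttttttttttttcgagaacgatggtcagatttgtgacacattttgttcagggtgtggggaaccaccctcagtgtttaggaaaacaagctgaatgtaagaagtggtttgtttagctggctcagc
Tspan31: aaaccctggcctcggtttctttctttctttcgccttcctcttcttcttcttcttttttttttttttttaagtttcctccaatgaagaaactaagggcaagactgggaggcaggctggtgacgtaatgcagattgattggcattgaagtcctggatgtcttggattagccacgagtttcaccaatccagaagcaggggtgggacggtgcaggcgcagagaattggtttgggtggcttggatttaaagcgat
Cdk4: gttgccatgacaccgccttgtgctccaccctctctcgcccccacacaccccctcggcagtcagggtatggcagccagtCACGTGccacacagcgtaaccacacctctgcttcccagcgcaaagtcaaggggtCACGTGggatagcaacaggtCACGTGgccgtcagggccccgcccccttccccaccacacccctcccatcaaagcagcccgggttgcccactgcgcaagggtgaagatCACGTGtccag
In that build these are chr2:31639787-31640036 (plus strand), chr1:39651183-39651432 (minus), chr14:19976694-19976943 (minus), chr10:127070262-127070511 (minus) and chr10:127063285-127063534 (plus). The Cdk4 stretch held CANNTG 4 times, each time as CACGTG, the Creg2 stretch once, and the other 3 did not hold it. Over 32851 such stretches in the table, 66.2% held CANNTG, 32.7% held GGGCGG on either strand and 12.4% held TATAAA on either strand. GGGCGG, the core of a GC box, matched 1 time each in Prdm12 and Cdk4, and TATAAA matched in none of the 5. The bases were 61.2% G or C in Prdm12 and 64.4% in Cdk4, against 46.0% in Tspan31, 41.2% in Gng2 and a median of 52.4% over the table. These matches describe the letters only, and of the 31 genes called below 17 have an entry in the table.

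Library totals ran from 11763893 to 22392635 counts. Between any 2 libraries of a group, chi-square per degree of freedom was 7.36 to 101.2, so none was a copy of another, and the sex markers of 0 used libraries went against their label. The tissue label fits the markers, since the sensory neuron gene Avil was at 540.4 to 980.5 CPM (counts per 1000000), while the oligodendrocyte genes Olig2 and Mog reached at most 0.0659 and 0.525 CPM. Several knockout libraries held more transcripts of other cells than the controls did. The summed level of 18 skeletal muscle genes, among them Pvalb, which proprioceptors also express, was 78.9 to 122 CPM in the controls and 99.9, 497, 137 and 2815 CPM in knockout A, B, C and D. The sum of 11 erythroid genes was 251 to 465 CPM in the controls and 556, 521, 1775 and 2048 CPM in knockout A to D, and 16 neutrophil genes summed to 225 to 1040 CPM and to 870.2, 1515, 3980 and 1788 CPM. Knockout A lay within the range of the controls for muscle and neutrophil genes. In weights that limma derives from each library's own scatter, knockout D (0.280) and knockout C (0.572) were the lowest of the 9.

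Prdm12 (ENSMUSG00000079466) was at 105, 73.5, 115, 93.1 and 99.6 CPM in control A to E. It was at 28.3, 26.2, 15.7 and 14.6 CPM in knockout A to D. All 4 knockout libraries were below all 5 controls, and knockout A and B, titled as controls, were among the low ones. The knockout mean of 21.2 ± 7.08 CPM (SD, n = 4) was 21.8% of the control mean of 97.3 ± 15.6 CPM (SD, n = 5). The log2 fold was -2.13 (SE 0.22) with an adjusted p of 0.00452; every adjusted p is from the quasi-likelihood test of edgeR after Benjamini-Hochberg adjustment. Because the deposited-name record was taken up with the Prdm12 levels known, this value describes the groups and supports nothing about them. In the noninjected libraries that carry the same animal numbers the gene was at 98.3, 74.0, 81.0, 77.1 and 95.7 CPM in control A to E and at 23.0, 38.2, 22.1, 23.2 and 23.6 CPM in knockout A to E.

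**Figure D1:**
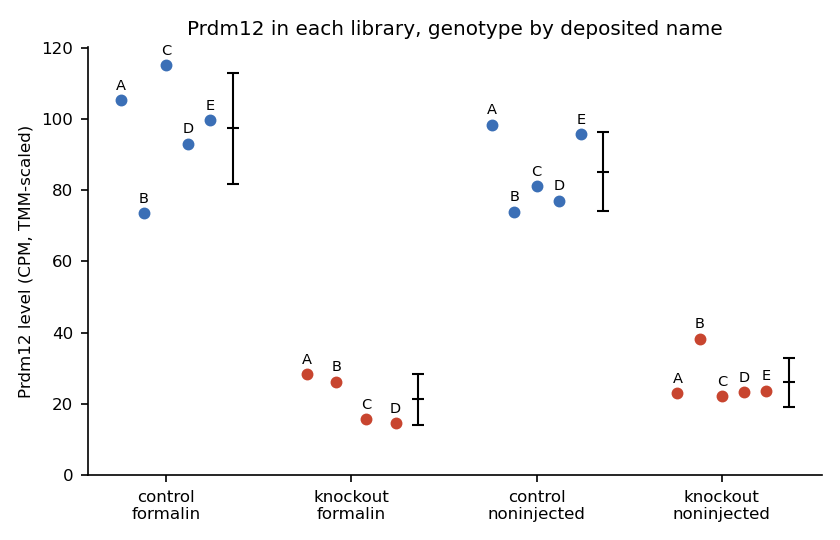
Prdm12 level (CPM after TMM scaling) in each library, with letters for the animals, in the 4 groups of genotype by deposited name and agent. Points are libraries, and the bar beside each group is its mean ± SD. In formalin ganglia the 4 knockout libraries sit between 14.6 and 28.3 CPM and the 5 controls between 73.5 and 115 CPM.

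Across 17515 genes tested in the formalin libraries, 19 rose (0.108%) and 12 fell (0.0685%) in the knockout. Of the 19 that rose, 7 lie beside Avil, the gene of the actin-binding protein advillin, and the other 12 include receptor genes such as Agtr1a, Chrna6, Drd1 and Ntrk3. Those that fell include Prdm12, the kainate receptor gene Grik1, the G protein subunit gene Gng2 and the Mas-related receptor gene Mrgprb5. The knockout and control libraries did not overlap in any of the 31, and over all genes tested the knockout lay wholly above the controls for 526 (3.00%) and wholly below for 492 (2.81%). There were 2144 genes with an unadjusted p under 0.05, 1296 of them with a positive fold. The median log2 fold of all genes tested was -0.0078. The count moved with single libraries, from 13 without control E and 14 without control D, through 18 without control A or control C and 20 without knockout B, to 683 without knockout A. Without knockout C and D, the libraries with the most blood-cell transcripts, 67 genes passed, 29 of the 31 among them. Without knockout D, which held the most muscle transcripts, 41 passed, with 28 of the 31. Knockout B, with the next highest muscle sum (497 CPM), stayed in both of these fits. In each of the 9 fits that left out a library, 13 genes were called: Tspan31, Cdk4, Ctdsp2, Tsfm, Mettl1, Atp23, Stk32a, Agtr1a, Atp6ap1l and Drd1, which rose, and Prdm12, Creg2 and Gng2, which fell.

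**Figure D2:**
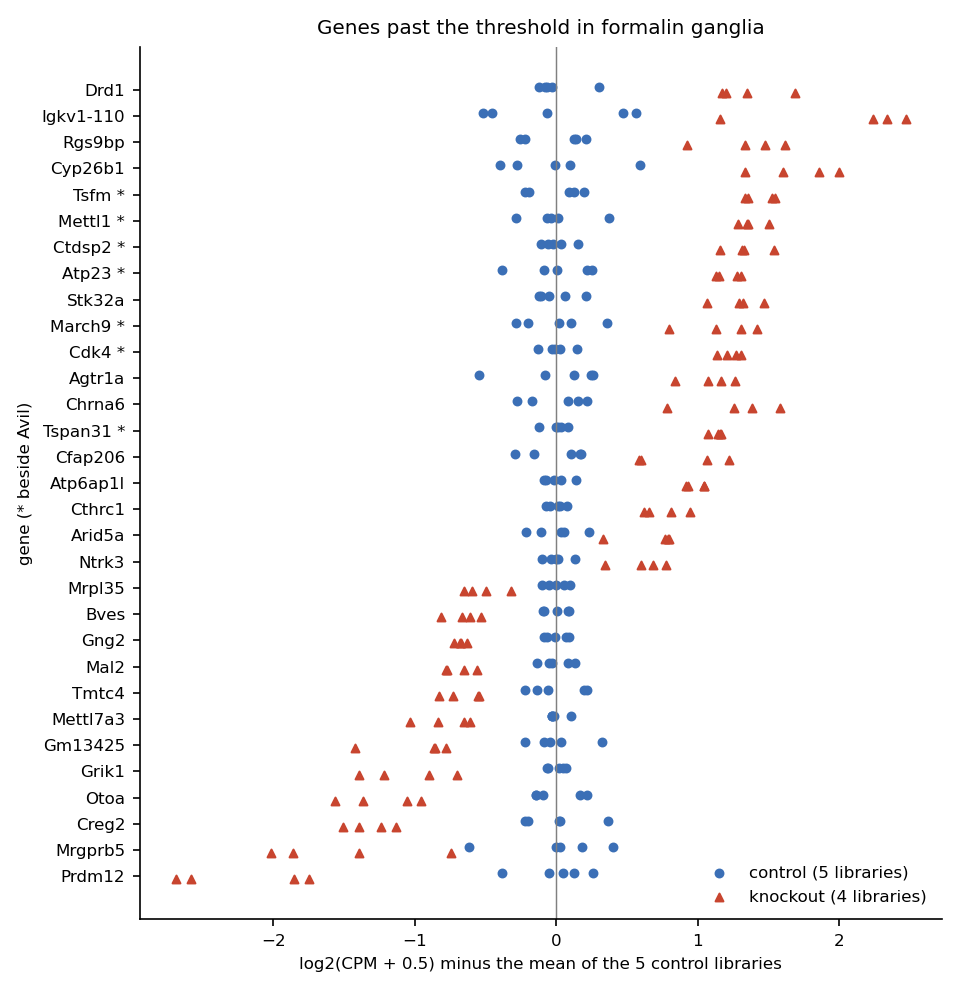
Each of the 31 genes past the threshold in formalin ganglia, one row a gene, with the library's log2(CPM + 0.5) minus the mean of the 5 control libraries on the x axis. Circles are control libraries and triangles knockout libraries, and a star marks a gene beside Avil. In no row do the circles and triangles overlap; the offset of 0.5 CPM shrinks the distance for low genes such as Drd1.

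The genes beside Avil formed a run along the chromosome. In gene order of the annotation at hand (GRCm38) they are Atp23, Ctdsp2, Avil, Tsfm, Eef1akmt3, Mettl1, Cyp27b1, March9, Cdk4 and Tspan31, followed by Agap2 and Os9. The list of genes beside Avil also holds B4galnt1 and Slc26a10, which come after Os9 and did not pass (log2 folds -0.006 and 0.44). Of its 13 genes tested, 7 rose, against 0.108% of all genes, 0 fell, and the median log2 fold was 1.25. The list was drawn up with earlier results of these data known, so its count and median only describe it. The cell cycle kinase gene Cdk4 was at 49.7, 54.1, 48.6, 47.9 and 44.6 CPM in control A to E and at 114, 119, 108 and 122 CPM in knockout A to D. Its groups were far apart, with 49.0 ± 3.43 CPM in the controls and 115 ± 6.08 CPM in the knockout (SD over 5 and 4 libraries). The log2 fold was 1.26 with an SE of 0.08 (adjusted p = 9.43e-05). Tspan31, a tetraspanin gene, was at 47.3, 54.7, 51.5, 52.7 and 52.0 CPM in control A to E and at 116, 115, 109 and 116 CPM in knockout A to D. Control B and C, titled icKO, were with the controls in both genes, and knockout A and B, titled control, with the knockout. Both genes were picked by their p in the grouping by deposited names, so their levels support nothing about which record is right.

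Ctdsp2, a phosphatase gene, was at 59.0 to 70.9 CPM in the controls and at 143, 161, 159 and 186 CPM in knockout A to D (log2 fold 1.32, SE 0.10). Tsfm, a mitochondrial translation elongation factor gene, was at 11.3 to 15.2 CPM in the controls and 33.9 to 39.4 CPM in the knockout, which is 2.83-fold on the fitted scale. Mettl1, which methylates transfer RNA, was at 10.1 to 16.1 CPM in the controls and 30.9 to 36 CPM in the knockout (log2 fold 1.34, SE 0.12). These 3 genes were tightly grouped, with no library between the groups. Atp23, a mitochondrial metallopeptidase gene, rose by 1.29 (SE 0.15) and the ubiquitin ligase gene March9 by 1.26 (SE 0.17) on the log2 scale. March9 kept its fold but lost its call without control A, control D, control E or knockout B (adjusted p up to 0.122). Eef1akmt3, a methyltransferase gene in the middle of the run, had a log2 fold of 1.25 and did not pass (adjusted p = 0.163). Cyp27b1, the vitamin D activating enzyme gene, was below the filter, at 0 to 0.251 CPM in the controls and 0.473 to 0.857 CPM in the knockout. Next to the run the folds were smaller and did not pass, with 0.24 for Lrig3 on the Atp23 side, and 0.18 for Agap2 and -0.04 for Os9 beyond Tspan31.

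Avil itself was at 881, 786, 980.5, 789 and 817 CPM in control A to E and at 975, 852, 777 and 540.4 CPM in knockout A to D. The groups overlapped, with a log2 fold of -0.04 (SE 0.14; adjusted p = 0.941), and it did not pass in noninjected ganglia either (0.29, SE 0.10; adjusted p = 0.0857). The library kit does not mark the strand, and the spans of Avil and Tsfm, of Cdk4 and Tspan31 and of Eef1akmt3 and Mettl1 overlap, so reads in the shared parts cannot be told apart. Atp23, Ctdsp2 and March9 overlap no other coding gene in this annotation. Why the run is higher was not tested.

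Of the genes that fell, Gng2, a G protein gamma subunit gene, was at 298, 303, 315, 332 and 337 CPM in control A to E and at 205, 199, 198 and 192 CPM in knockout A to D. Its libraries were evenly low, at 62.5% of the control mean (log2 fold -0.70, SE 0.07; adjusted p = 0.00306). Creg2, which encodes a secreted glycoprotein, was at 25.6, 25.8, 32.8, 22 and 21.6 CPM in the controls and 11.3, 8.57, 9.33 and 10.5 CPM in knockout A to D. It was at 38.8% of the control mean, with a log2 fold of -1.25 (SE 0.12; adjusted p = 0.00162).

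Grik1, a kainate-type glutamate receptor subunit gene, was at 377, 350.2, 383, 369.6 and 349 CPM in control A to E and at 196, 224, 157 and 139 CPM in knockout A to D. Knockout C and D were the lowest, and all 4 were well under the lowest control (log2 fold -1.0, SE 0.14; adjusted p = 0.0173). Mal2, a membrane protein of vesicle traffic, was at 231 to 278 CPM in the controls and 147 to 172 CPM in the knockout (log2 fold -0.70, SE 0.09). Otoa, the otoancorin gene and a member of the non-peptidergic nociceptor list, was at 11.3 to 14.7 CPM in the controls and 3.94 to 6.26 CPM in the knockout (log2 fold -1.21, SE 0.15).

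Mrgprb5, a Mas-related receptor gene of the same list, was at 7.77, 12.4, 12.2, 13.9 and 16.2 CPM in control A to E and at 3.00, 7.06, 4.33 and 2.63 CPM in knockout A to D. Control A and knockout B came close to each other (log2 fold -1.76, SE 0.28; adjusted p = 0.0466). Its family has near-identical members, so the level of the single gene is uncertain. The smaller changes were in Tmtc4, an enzyme of the endoplasmic reticulum (-0.72, SE 0.11), Mettl7a3, a methyltransferase-like gene with close copies (-0.75, SE 0.11), Bves, a Popeye domain gene (-0.64, SE 0.09), and Mrpl35, a mitochondrial ribosomal protein gene (-0.55, SE 0.09). The predicted gene Gm13425 (-0.92, SE 0.15) completes the 12 and was named after its values were seen.

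Of the genes that fell, Creg2, Gng2 and Prdm12 kept their call without any 1 library. Mal2 and Otoa lost it without control D or control E (adjusted p up to 0.11 and 0.104). Grik1 lost it without control A, C, D or E or knockout C (up to 0.155). Mettl7a3 lost its call without the same 5 libraries as Grik1 (up to 0.182), Bves, Gm13425 and Mrgprb5 without 6 (up to 0.189, 0.305 and 0.275), and Mrpl35 and Tmtc4 without 7 (up to 0.295 and 0.275). All 12 kept a negative fold in these 9 fits.

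Genes that rose away from Avil included several receptor genes. Chrna6, a nicotinic acetylcholine receptor alpha subunit gene, was at 78.5, 72.9, 93.6, 98.3 and 103 CPM in control A to E and at 232, 266, 212 and 153 CPM in knockout A to D. Knockout D was the lowest of its group and still above every control (log2 fold 1.24, SE 0.16; adjusted p = 0.0158). Agtr1a, an angiotensin receptor gene in the non-peptidergic list, was at 19.8, 21.8, 21.6, 17.1 and 12.2 CPM in the controls and 44.1, 38.7, 41.2 and 32.9 CPM in knockout A to D. Its log2 fold was 1.24 (SE 0.13; adjusted p = 0.00306).

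Ntrk3, the neurotrophin receptor gene of proprioceptors and some mechanoreceptors, was at 320.4, 342, 376, 335 and 346 CPM in control A to E and at 551, 521, 589 and 435 CPM in knockout A to D. It stood at the threshold (log2 fold 0.63, SE 0.10; adjusted p = 0.0488) and lost its call without any 1 of the 5 controls, knockout B or knockout C (up to 0.333). Drd1, a dopamine receptor gene, was below the mean level set for named genes and was singled out after its values were seen. Its raw counts were 2, 7, 3, 2 and 2 in control A to E and 39, 16, 21 and 24 in knockout A to D, with a log2 fold of 2.86 (SE 0.32). Both groups were low, at no more than 1.72 CPM.

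The rest of the risen genes were Stk32a, a protein kinase gene (1.27, SE 0.11), Atp6ap1l, a relative of a proton pump subunit (1.04, SE 0.12), and Cfap206, a cilium gene (1.05, SE 0.12). Rgs9bp, an anchor of a G protein regulator (1.86, SE 0.25), was at 0.672 to 1.12 CPM in the controls and 2.15 to 3.79 CPM in the knockout. Cyp26b1, which breaks down retinoic acid (1.71, SE 0.24), was at 6.66 to 13.7 CPM and 23.3 to 37.1 CPM. Igkv1-110, an immunoglobulin kappa variable segment of B lineage cells (2.49, SE 0.37), was at 1.05 to 2.77 CPM and 4.43 to 11.7 CPM, beside B lymphocyte genes whose sums were 321 to 526 CPM in the controls and 657 to 990.4 CPM in the knockout; their part in it was not tested. The smallest of these folds were those of Cthrc1, a secreted protein gene (0.80, SE 0.13), and Arid5a (0.78, SE 0.12), both named after their values were seen.

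Among these, Stk32a, Agtr1a, Atp6ap1l and Drd1 were called without any 1 library. Cfap206 lost its call without control E (adjusted p = 0.0574), and Chrna6 without control A, control D or control E (up to 0.104). Rgs9bp lost it without 5 of the 9 libraries (up to 0.115), Cyp26b1 and Igkv1-110 without 6 (up to 0.18 and 0.215), Arid5a without 7 and Cthrc1 without 8 (up to 0.287 and 0.272). The folds of these genes stayed positive in all 9 fits.

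Genes of the nociceptor classes mostly had negative folds without passing the test. Of 12 peptidergic nociceptor genes 0 rose and 0 fell, 10 had a negative fold, and the median log2 fold was -0.60. Gfra3, the co-receptor of the growth factor artemin, was at 81.2, 62.4, 63.9, 73.9 and 92.4 CPM in control A to E and at 44.7, 38.2, 23.7 and 21.3 CPM in knockout A to D. The groups did not overlap, and knockout C and D were the lowest (log2 fold -1.20, SE 0.24; adjusted p = 0.108).

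Trpv1, the capsaicin receptor gene, was singled out after its values were seen. It was at 275, 179.6, 196, 276 and 349 CPM in control A to E and at 203, 177, 102 and 95.3 CPM in knockout A to D. The groups overlapped, since control B and C were as low as knockout A and B (log2 fold -0.83, SE 0.29; adjusted p = 0.294). Calca, the gene of the peptide CGRP, was at 1533 to 1909 CPM in the controls and 1274 to 1567 CPM in the knockout, also overlapping (adjusted p = 0.294), and is named as the best known gene of the class.

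Of 17 non-peptidergic nociceptor genes 1 rose, Agtr1a, and 2 fell, Otoa and Mrgprb5, and the median log2 fold was -0.34 (-0.15 without knockout D). The knockout lay wholly below the controls in 6 of them and wholly above in 1, against 2.81% and 3.00% of all genes tested. Genes of 1 cell class can move together in a library, so these counts are not separate results. Ret, the signalling receptor of this class and named for that, was among the lower ones, at 450.2 to 609 CPM in the controls and 241 to 419.9 CPM in the knockout (log2 fold -0.64, SE 0.16; adjusted p = 0.16). Of 6 cold thermoreceptor genes 0 passed, with a median of -0.46, which was -0.22 without knockout C, -0.30 without control E and -0.82 without knockout A. Trpm8, the menthol and cold channel gene, was at 60.2, 64.7, 64.2, 46.8 and 55.9 CPM in control A to E and at 42.6, 31.0, 13.1 and 17.9 CPM in knockout A to D (log2 fold -1.01, SE 0.25; adjusted p = 0.17). Knockout C and D were again the lowest.

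Other neuron classes lay close to the median of all genes. Of 11 itch neuron genes 0 passed (median 0.02), of 8 C-low-threshold mechanoreceptor genes 0 passed (median 0.05), and of 22 genes of A-fibre mechanoreceptors and proprioceptors Ntrk3 alone passed (median -0.01). The 12 pan-neuronal genes had a negative fold in 12 of 12, with a median of -0.11 and 0 past the threshold. In these bulk libraries, fewer cells of a type and less RNA per cell cannot be told apart. Of 30 sensory lineage transcription factor genes Prdm12 fell and no other passed (median -0.02), and of 13 PRDM family genes Prdm12 alone passed. Skor2, a corepressor gene named after its values were seen, was at 4.27 to 8.24 CPM in the controls and 10.9 to 17.1 CPM in the knockout, without overlap (log2 fold 1.14, SE 0.24; adjusted p = 0.115).

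Ion channel lists held few calls, as did all genes tested, of which 0.108% rose and 0.0685% fell. Of 18 TRP channel genes 0 passed (median -0.22; -0.12 without control E and -0.41 without knockout A), of 16 voltage-gated sodium channel genes 0 (median -0.07), of 33 potassium and HCN channel genes 0 (median -0.09) and of 16 voltage-gated calcium channel genes 0 (median -0.15). Scn10a, the sodium channel gene of nociceptors, was at 1061 to 1278 CPM in the controls and at 1003, 967, 898 and 517 CPM in knockout A to D (log2 fold -0.40, SE 0.17; adjusted p = 0.383). Its groups did not overlap, and knockout D stood far below the rest. Of 22 glutamate and GABA receptor subunit genes Grik1 fell, and the median was -0.10. The knockout lay wholly below the controls in 5 TRP, 2 sodium, 5 potassium and HCN and 0 calcium channel genes. It lay wholly above them in 0, 0, 2 and 0, against 2.81% below and 3.00% above over all genes tested. Channel genes of 1 cell type can move together in a library, so these counts are not separate results.

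Of 10 nicotinic receptor subunit genes tested, Chrna6 rose, 0 fell, 5 had a negative fold, and the median was -0.34 (-0.53 without knockout A). The knockout lay wholly below the controls in 4 and wholly above in 1, against 2.81% and 3.00% of all genes tested. Subunit genes can move together in a library, so these counts are not separate results. Chrnb4 was at 23.2, 6.28, 7.73, 24.3 and 24.5 CPM in control A to E and at 3.30, 4.02, 0.979 and 1.21 CPM in knockout A to D. Control B and C, the controls titled icKO, were nearer to the knockout than to the other controls (log2 fold -2.91, SE 0.60; adjusted p = 0.128). Chrna3 overlapped between the groups, with 54.0, 11.6, 12.9, 69.6 and 64.5 CPM in the controls and 12.4, 15.4, 8.61 and 5.36 CPM in the knockout (log2 fold -2.09, SE 0.60; adjusted p = 0.229). Gal, the gene of the neuropeptide galanin, was at 38.2, 22, 23.0, 43.9 and 53.3 CPM and at 14.1, 19.5, 7.73 and 10.8 CPM (log2 fold -1.56, SE 0.32; adjusted p = 0.126). Of 16 sensory neuropeptide genes 0 passed (median -0.14). Chrnb4 and Chrna3 are named because of their values. In these 3 genes control B and C lay below control A, D and E.

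**Figure D3:**
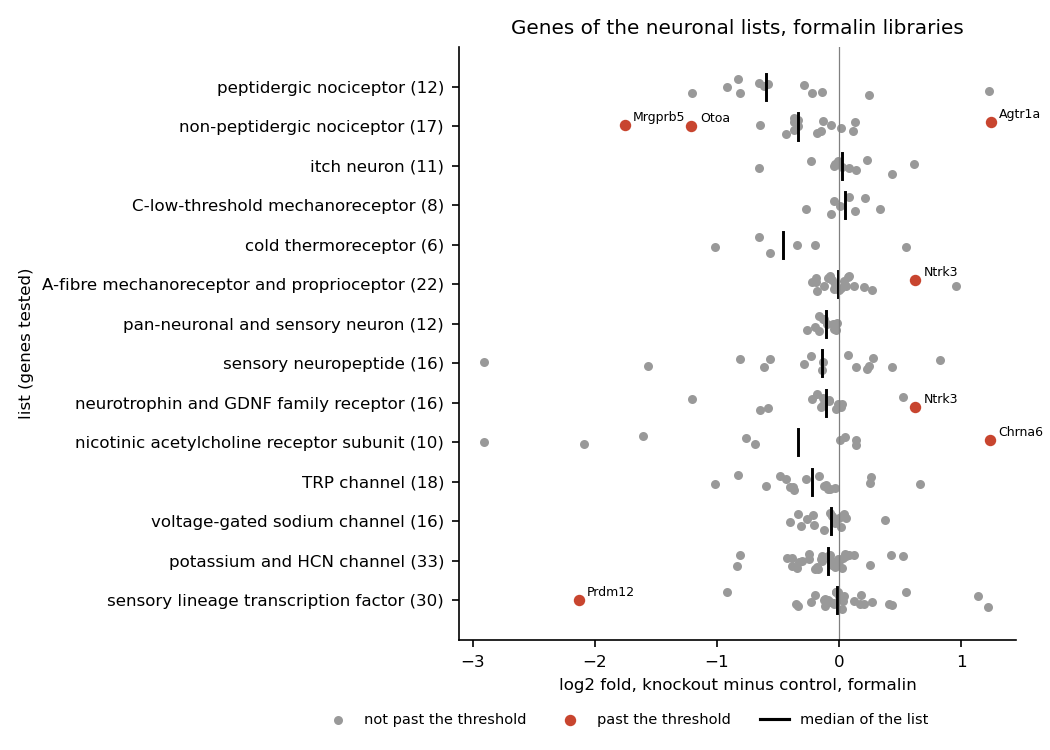
Log2 fold of knockout minus control in formalin ganglia (x axis) for each gene tested in 14 neuronal lists, with the number tested in brackets. Red points passed the threshold, grey points did not, and the black bar is the list's median. The peptidergic list has its bar at -0.60, and the A-fibre list at -0.01.

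The other receptor and channel lists were also near the median of all genes. Of 14 P2X, ASIC and mechanosensitive channel genes 0 passed (median -0.02), and Piezo2, the touch channel gene, was at 474 to 595 CPM in the controls and 731, 729, 682 and 532 CPM in knockout A to D, with knockout D among the controls (log2 fold 0.34, SE 0.11; adjusted p = 0.266). Of 16 neurotrophin and GDNF family receptor genes 1 rose, Ntrk3, and the median was -0.11. Of 22 opioid and other inhibitory receptor genes 0 passed (median -0.19, or -0.074 without control E). The somatostatin receptor gene Sstr1, which was low throughout, was at 1.05 to 3.10 CPM in the controls and 0.309 to 0.969 CPM in the knockout (log2 fold -1.78, SE 0.33; adjusted p = 0.0801). Kcnn2, a calcium-activated potassium channel gene, was at 8.14 to 12.98 CPM in the controls and 5.31 to 7.36 CPM in the knockout, without overlap (adjusted p = 0.128).

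Genes of inflammation and injury were not called. Over all genes tested 0.108% rose and 0.0685% fell, so 0 calls in lists of this size is not a result about these genes. Of 15 cytokine and inflammatory mediator genes 0 passed, although 13 had a positive fold (median 0.79), and of 27 inflammatory mediator receptor genes 0 passed (median 0.03). Il1b was at 0.814 to 1.90 CPM in the controls and at 2.20, 2.51, 4.90 and 3.20 CPM in knockout A to D (log2 fold 1.07, SE 0.33; adjusted p = 0.231). Beside it, the macrophage and neutrophil sums were also higher in knockout B, C and D, and their part in it was not tested. Of 22 immediate-early genes 0 passed (median 0.08), of 18 nerve injury genes 0 (median -0.03) and of 21 interferon response genes 0 (median 0.11). Gpr151, an orphan receptor gene of the injury list, was at 1.66 to 2.71 CPM in the controls and 5.15, 6.0, 3.76 and 5.46 CPM in knockout A to D, without overlap (log2 fold 1.19, SE 0.21; adjusted p = 0.0705). In noninjected ganglia it rose by 1.18 (SE 0.16; adjusted p = 0.00255). Of 19 glucocorticoid and stress response genes 0 passed (median 0.09), of 20 cholesterol synthesis genes 0 (median -0.17), of 15 circadian clock genes 0 (median 0.25; 0.43 without knockout A and 0.17 without control D) and of 19 Hox genes 0 (median 0.09).

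In the lists of other cell types no gene passed the threshold, where 0.108% of all genes tested rose and 0.0685% fell. The folds of muscle and blood cell genes were mostly positive. All 14 skeletal muscle genes tested had a positive fold, with a median of 3.53 on the log2 scale. Acta1, the muscle actin gene, was at 4.76, 5.38, 3.87, 8.38 and 5.58 CPM in control A to E and at 3.26, 60.8, 11.1 and 231 CPM in knockout A to D. Knockout A was the lowest of all 9 libraries and knockout D the highest (log2 fold 2.59, SE 1.38; adjusted p = 0.505). The median of the list was 1.75 without knockout D and 5.00 without knockout A.

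Of 16 neutrophil genes 16 had a positive fold (median 2.10) and 4 did not overlap, and all 11 erythroid genes were positive (median 2.08), 7 of them without overlap. Over all genes tested the knockout lay wholly above the controls for 3.00%. Genes of 1 cell type can move together in a library, so these counts are not separate results. S100a8, a calcium-binding protein gene of neutrophils, was at 187, 100.1, 37.3, 67.0 and 50.9 CPM in control A to E and at 162, 269, 732 and 420.2 CPM in knockout A to D. Control A was higher than knockout A, so the groups overlapped (log2 fold 2.20, SE 0.75; adjusted p = 0.289). It passed with DESeq2 (adjusted p = 0.0352), in the 5 libraries with one genotype in both records (3.30; adjusted p = 0.00523), in males only (3.02; adjusted p = 0.0302) and in the fit of all 19 libraries (2.25; adjusted p = 0.0473), and its fold was 1.42 without knockout C and D (adjusted p = 0.555). The globin gene Hba-a1, whose reads can be split with its copy Hba-a2, was at 19.3 to 42.3 CPM in the controls and at 60.04, 45.8, 192 and 240.003 CPM in the knockout. Neutrophil medians ran from 1.62 without knockout C to 2.95 without knockout A.

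Proliferation genes had a positive fold in 15 of 15 (median 1.22), B lymphocyte genes in 10 of 11 (median 1.49), T lymphocyte genes in 11 of 11 (median 1.02) and adipocyte genes in 9 of 9 (median 1.73). The macrophage list was positive in 20 of 20 (median 0.46), with sums of 599 to 1039 CPM in the controls and 724, 1235, 1391 and 2109 CPM in knockout A to D. Single libraries moved several of these medians: for macrophages to 0.13 without knockout D, 0.16 without control E and 0.94 without knockout A, and for T lymphocytes to 0.66 without control E and 2.00 without knockout A. Fibroblast and collagen genes had a median of 0.66 (0.39 without knockout D and 1.03 without knockout A), satellite glia genes -0.03 and Schwann cell and myelin genes 0.04, with 0 past the threshold in each. Dpt, a matrix protein gene of fibroblasts, was at 1.08 to 2.76 CPM in the controls and 5.90, 6.46, 5.77 and 12 CPM in knockout A to D (log2 fold 2.09, SE 0.35; adjusted p = 0.0579). Ccnb1, a mitotic cyclin gene, was at 0.317 to 0.672 CPM and at 0.881, 1.65, 2.53 and 2.73 CPM (log2 fold 1.62, SE 0.28; adjusted p = 0.0579). Both were just short of the threshold, and in both knockout D was the highest library. No gene passed among 7 of mast cells (median 0.56), 12 of endothelium (median 0.36), 10 of pericytes and smooth muscle (median 0.71), 9 of cartilage and bone (median 0.13) and 4 of the central nervous system (median 0.45). Of these, the mast cell median was 0.14 without knockout D, 0.24 without control D, 0.32 without control E and 1.03 without knockout A. The endothelial median was 0.19 without control E, the pericyte median 0.20 without knockout B, and the central nervous system median 0.29 without control D and 0.84 without knockout A. The bone gene Bglap was at most 0.946 CPM. The share of these cells' transcripts differed between libraries, and its part in the counts above was not tested. Knockout A lay within the range of the controls for muscle and neutrophil genes. Scaling factors computed without the muscle, erythroid and neutrophil genes gave the same number of calls, 31, and the same 31 genes. This check changes only the scaling, so it cannot show whether transcripts of these cells bear on the calls.

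**Figure D4:**
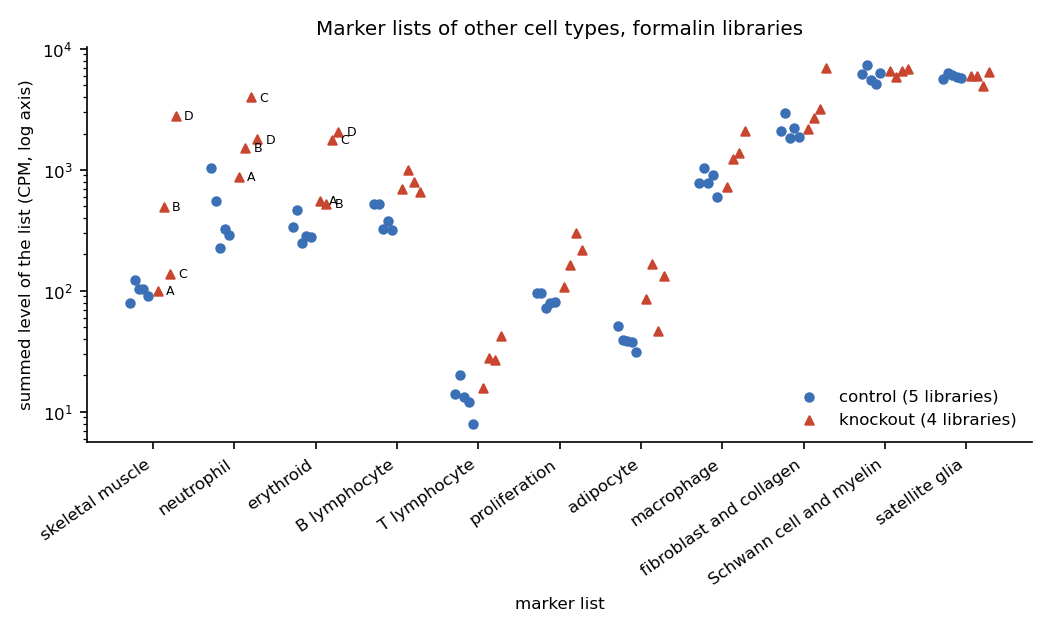
Summed level of marker lists of other cell types in each formalin library (CPM, log axis). Circles are the 5 control libraries and triangles the 4 knockout libraries in the order A to D, lettered for the first 3 lists. Muscle genes reach 2815 CPM in knockout D, while glial and myelin lists lie together in both groups.

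In the noninjected libraries, 5 knockout and 5 control, 772 genes were higher (4.61%) and 482 lower (2.88%) in the knockout, of 16756 tested. Leaving out 1 library moved this count from 184 without control D to 2050 without knockout A. Formalin and noninjected libraries carry the same animal numbers, so the 2 comparisons are not independent. Of the 31 genes called in formalin ganglia, 28 passed in the noninjected fit as well, with the same sign, which is 90.3% of the formalin calls and 2.23% of the noninjected calls. Bves, Igkv1-110 and Gm13425 did not pass there (log2 folds -0.21, 1.26 and -0.49).

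The folds of the called genes had the same sign under both agents and differed in size for some. Chrna6 had a log2 fold of 1.24 in formalin and 1.5 in noninjected ganglia, where it was at 74.4 to 91.5 CPM in the controls and 189 to 267 CPM in the knockout. Grik1 had -1.0 and -0.88, Gng2 -0.70 and -0.63, Otoa -1.21 and -1.35, Mrgprb5 -1.76 and -1.86, and Creg2 -1.25 and -1.25. Further apart were Igkv1-110 (2.49 and 1.26), Bves (-0.64 and -0.21), Gm13425 (-0.92 and -0.49), Mettl7a3 (-0.75 and -0.39), March9 (1.26 and 1.80) and Prdm12 (-2.13 and -1.74). Beside Avil, 9 of 13 genes rose in noninjected ganglia, against 4.61% of all genes tested there, with a median of 1.11. Agap2 was among the 9 (0.65, SE 0.13, adjusted p = 0.0135).

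The test of the difference between the agents called 0 of 17671 genes (0.00%) in edgeR, with a smallest adjusted p of 0.108. Unadjusted, 4195 genes had a p under 0.05, 8 of the 31 among them, and DESeq2 called 842. With the animal as a block, edgeR also called 0, with 3941 at an unadjusted p under 0.05. Without knockout A 1762 were called. The smallest p belonged to Ass1, an enzyme of arginine synthesis (log2 difference, formalin minus noninjected effect, -0.89, SE 0.16), Pigs (-0.68, SE 0.14) and Larp6 (-0.75, SE 0.15), and on the positive side to 1300002E11Rik (0.87, SE 0.18), Nat1 (1.98, SE 0.42) and ENSMUSG00000118504 (1.70, SE 0.37), which has no symbol. Of the genes that fell or rose, Mettl7a3 differed by -0.39 (SE 0.12), March9 by -0.58 (SE 0.20) and Ctdsp2 by 0.34 (SE 0.12), with an adjusted p of 0.114, 0.122 and 0.128.

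**Figure D5:**
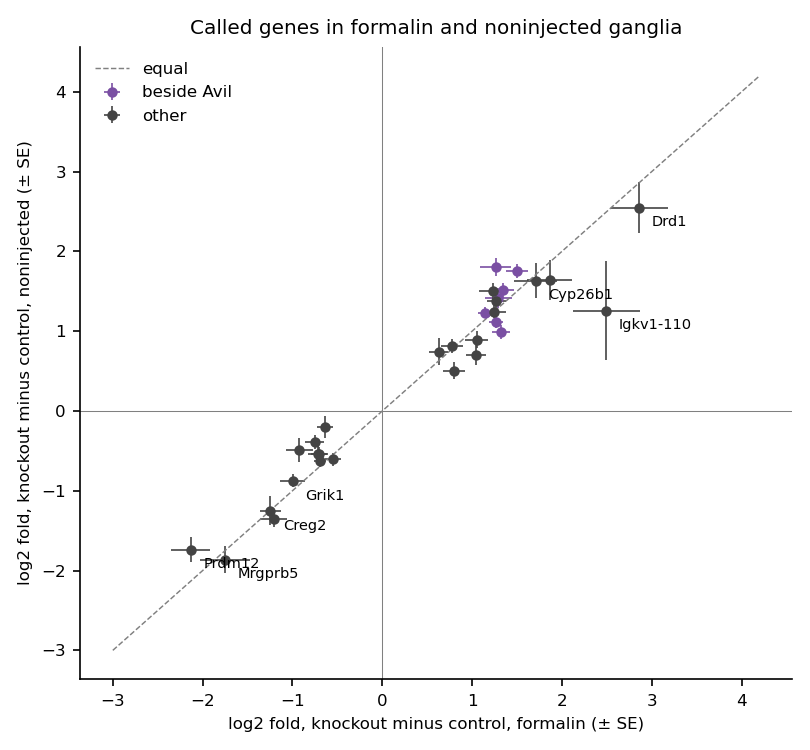
Log2 fold of knockout minus control in formalin (x axis) and noninjected (y axis) ganglia of the 31 genes called in formalin ganglia, with bars of 1 SE each way. The dashed line marks equal folds. All 31 points have the same sign on both axes, and the 7 genes beside Avil lie between 0.99 and 1.80 on the y axis.

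The lists are set side by side for the agents, with 0 members called for the difference in any list. Peptidergic nociceptor genes had a median log2 fold of -0.60 in formalin and 0.14 in noninjected ganglia, where Gfra3 (-0.25, SE 0.34) and Trpv1 (0.25, SE 0.26) did not pass. Noninjected Trpv1 was at 138 to 234 CPM in the controls and at 193, 364, 168, 152 and 187 CPM in knockout A to E. Knockout B was the highest of these 10 libraries, and Gfra3 was also highest there, at 100.2 CPM, against 35.9 to 39.7 CPM in the other 4. Macrophage genes had a median of 0.46 in formalin and -0.38 in noninjected ganglia, with 0 of 20 positive, and skeletal muscle genes 3.53 and -0.21. Muscle sums of noninjected libraries were 113 to 133 CPM in the controls and 93.9 to 134 CPM in the knockout. Of 7 mitochondrially encoded genes tested in noninjected ganglia 7 fell (median -0.58), against 2.88% of all genes tested there. Of 8 in formalin ganglia 0 passed (median 0.07). These genes can move together in a library, so the 7 are not separate results. The noninjected sums of the list overlapped, at 42391 to 66298 CPM in the controls and 31036 to 43630 CPM in the knockout.

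With the same 9 formalin libraries grouped by their sample titles, edgeR called 0 genes, with 2103 at an unadjusted p under 0.05 and a smallest adjusted p of 0.414. Prdm12 then had a log2 fold of -0.91 (SE 0.83; adjusted p = 0.653). In the 5 libraries with one genotype in both records, 1035 genes were called, 27 of the 31 among them. The knockouts among these 5 were knockout C and D alone, both male. They held the most erythroid and neutrophil transcripts and had the lowest limma weights of the 9 libraries. Their part in the count was not tested.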

How the data were processed

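PolyA RNA of lumbar dorsal root ganglia was sequenced after a library kit that does not mark strand, per the labels' protocols. The authors deposited raw counts per Ensembl gene (55416 IDs). The submitters' processing notes list STAR 2.7.8a, featureCounts 2.0.1, the build GRCm39 and bcl2fastq 2.20.0.422; how strand and multiply matching reads were handled, and with which annotation, is not given in the sources used. Symbols matched 52083 IDs, which held 98.92% to 99.56% of a formalin library's counts.

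From these counts, each comparison was fitted with edgeR 4.0.16 in R 4.3.3 (quasi-likelihood F test, robust, TMM, filterByExpr, sex as covariate), with Benjamini-Hochberg adjustment over all genes tested and a threshold of 0.05. Levels are counts per 1000000 (CPM) after TMM scaling, and intervals between replicates are SDs over animals. The code was tested on simulated counts. The difference between agents used all 19 libraries. The 46 lists (780 entries, 712 tested) are described by counts and medians, without a set test. Members, lists and tests were chosen with earlier results of these data known. Named are Prdm12, Acta1, S100a8, the 15 smallest p in each direction among called genes whose mean log2 CPM reached 1 (predicted genes and sex-linked markers left out), and members of lists past the threshold or else the 2 with the smallest p. One gene that this rule names is not reported here.

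The alternatives were RLE factors, DESeq2 1.42.0, no filter, no sex term, leaving out each library, genotype by title, the libraries whose records agree, males only, a fit of all 19 libraries, TMM factors without muscle and blood genes, quality weights (limma 3.58.1) and the animal as a block. Leaving out knockout C and D together was added after the data were seen. Pairs of a formalin and a noninjected library carry one number in their deposited names and titles, read here as the animal's. Their deviations from group means correlated at 0 (knockout A) to 0.51 (control B) over 14230 genes in 9 pairs. Sex was not taken out of these deviations and unpaired libraries were not correlated. The values therefore cannot show whether the libraries of a pair come from 1 animal. The labels do not say how many animals a library pools. Where libraries are not separate animals, p-values measure only the spread between these samples.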

Additional observations from a re-analysis of the deposited data

Results flagged for a closer look

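Single libraries stood apart from the rest of their group in 6 of 160 group values tested for a far sample; chance flags about 1 in 20. In knockout D the summed skeletal muscle level was 2815 CPM, against 99.9 to 497 CPM in the other knockout libraries, and its sum of central nervous system genes was 58.6 CPM, against 37.7 to 40.9 CPM. Among the controls, Mettl7a3 was highest in control C at 27.0 CPM, against 24.6 to 24.8 CPM in the others, and Drd1 was highest in control B at 0.352 CPM, against 0.134 to 0.175 CPM. The summed cold thermoreceptor genes were highest in control E at 170.5 CPM, against 140.3 to 149 CPM. The summed voltage-gated calcium channel genes were lowest in control B at 1286 CPM, against 1555 to 1661 CPM.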

How the results depend on the processing

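The formalin count of 31 was 36 with RLE factors and 31 with TMM factors that left out muscle and blood genes. It became 165 without the sex term, 640 with DESeq2, 660 when no filter was set, 93 with quality weights, 699 in the fit of all 19 libraries, 522 in males only, 1035 in the 5 libraries whose records agree, 67 without knockout C and D, 0 by title, and 13 to 683 when 1 library was left out. The share with a positive fold, 61.3% of the 31, was 61.1% with RLE factors, 74.5% with DESeq2, 72.3% with no filter, 72.1% with no sex term, 67.7% with quality weights, 73.1% without knockout C and D, 77.1% in all 19 libraries, 84.8% in the 5 libraries whose records agree and 89.3% in males only. It was 84.2% without knockout A. The males were control D and E and knockout B, C and D, and the 5 libraries whose records agree held knockout C and D as their only knockouts. Prdm12 had a log2 fold of -2.02 to -2.36 when 1 library was left out and -0.91 by title. Grouping by title turned the fold of 6 named genes: Stk32a (-0.039), Atp23 (-0.082), Cfap206 (-0.14), Chrna6 (-0.27), Rgs9bp (-0.17) and Igkv1-110 (-0.38). The noninjected count of 1254 became 2055 with DESeq2, 2545 without a filter, 0 by title (1057 at an unadjusted p under 0.05) and 184 to 2050 when 1 library was left out. For the difference between agents, edgeR's count of 0 was also 0 with the replicate block by animal, DESeq2 gave 842, the fit without a filter 2519, and leaving out 1 animal 0 to 1762. The causes were not tested. No paired analysis was possible within the formalin libraries because each animal gave 1 of them. Counts below about 10 per library, as for Drd1, limit precision.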
